A study of Homo sapiens with 3 samples.

Results

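Aldo-keto reductases reduce aldehydes and ketones with NADPH, and several of them belong to the genes that the transcription factor NRF2 turns on. They were examined here with 5 further NRF2 targets in HT29 cells on 3 culture surfaces. The set holds 10 genes, the aldo-keto reductases AKR1B1, AKR1B10, AKR1C1, AKR1C2 and AKR1C3 and the antioxidant genes NQO1, GCLM, TXNRD1, SRXN1 and HMOX1. Its members were found on the arrays by the accession of each probe, matched to a RefSeq symbol. A probe was matched to 9 of the 10, with 11 probes in all, of 21614 genes and 30004 named probes on the arrays. AKR1C2 had no matched probe and was not analysed here. Gene names given on the arrays were not used, so whether an unmatched probe stands for AKR1C2 was not checked. The set was chosen with array values of these same cells in view, so the differences below are descriptions of 3 arrays.

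HT29 is an established human line from a colon adenocarcinoma. The cells were cultured on tissue culture polystyrene (TCP, titled 2D), on a chitosan membrane (CS) or on a chitosan membrane grafted with hyaluronan (CSHA, titled chitosan_HA), and no other treatment is given for any of the 3 groups. The question was how gene expression on each membrane differed from that on TCP. Total RNA of each surface was labelled with Cy3 and hybridized to 1 array, so differences between surfaces stand without replicates or p-values. How many cultures stood behind each RNA and how long they had grown are not given in the sources used here. The arrays shared 1 slide and 1 scan.

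In resting cells NRF2, the product of NFE2L2, is bound by KEAP1 and degraded. Oxidants and electrophiles disturb that binding, and NRF2 then pairs with a small MAF protein on antioxidant response elements in the DNA, where BACH1 competes for the same letters. The targets make glutathione, recycle thioredoxin, break down heme, supply NADPH and remove reactive aldehydes and quinones. In the gut epithelium, AKR1B10 in particular is known as a detoxifying enzyme for dietary and lipid-derived carbonyls.

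The array data had the following quality. Each array held 62976 spots. Apart from controls there were 58717 spots with 50599 different probes. Between 48.6% and 51.1% of the probes were well above background, and 0 spots were saturated. Levels are given as the processed signal of the scanner software, corrected for background, and as its log2 value minus the 75th percentile of the same array, which was 355 on TCP against 423 on CS and 338 on CSHA. All 12 colon epithelial marker genes were well above background on every array. Of 12 hepatocyte markers, 3 or 4 were, with ALB and AFP not among them, and of 7 stromal markers between 0 and 2 were. Of 5 immune markers with a probe, 3 or 4 were well above background. Past 2-fold against TCP were TTR, a hepatocyte marker, at 2.63 or above on CS and 3.20 or above on CSHA on the log2 scale, and the immune markers CD3E, at -2.78 or lower on CS and -1.75 on CSHA, CD14, at 1.04 on CSHA, and CD68, at 1.01 on CSHA. Of the colon markers, CEACAM5 was, at 1.57 and 2.16. The summed processed signal, divided by the 75th percentile, ran from 1304 to 1459.9 for the colon list, from 21.1 to 25.2 for the hepatocyte list, from 0.103 to 0.258 for the stromal list and from 3.18 to 5.81 for the immune list. The part of these genes in the differences below was not tested. In bulk RNA, fewer cells that express a gene and less RNA per cell cannot be told apart.

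All 11 probes were well above background on all 3 arrays. The error of a difference was taken on 2 technical scales. The scanner software's own error was 0.20 to 0.21 on the log2 scale for every probe of the set. The SD expected from repeat spots of similar brightness was 0.06 to 0.07. Neither scale covers differences between cultures. Scaling the arrays to spike-in controls in place of the 75th percentile adds 0.06 to every difference on CS and 0.44 to every difference on CSHA, so that values between -0.44 and 0 on CSHA turn positive under it.

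The aldo-keto reductases of the set were higher on both membranes than on TCP, and by the brightest probe AKR1C1 and AKR1C3 were at least 2-fold higher on each. The lowest of the 4 measured reductases was higher than TCP by 0.78 on CS and 0.67 on CSHA on the log2 scale. The 5 other NRF2 targets did not reach that level: the highest, NQO1, exceeded TCP by 0.40 on CS and by 0.25 on CSHA. GCLM was lower on both membranes.

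**Figure D1:**
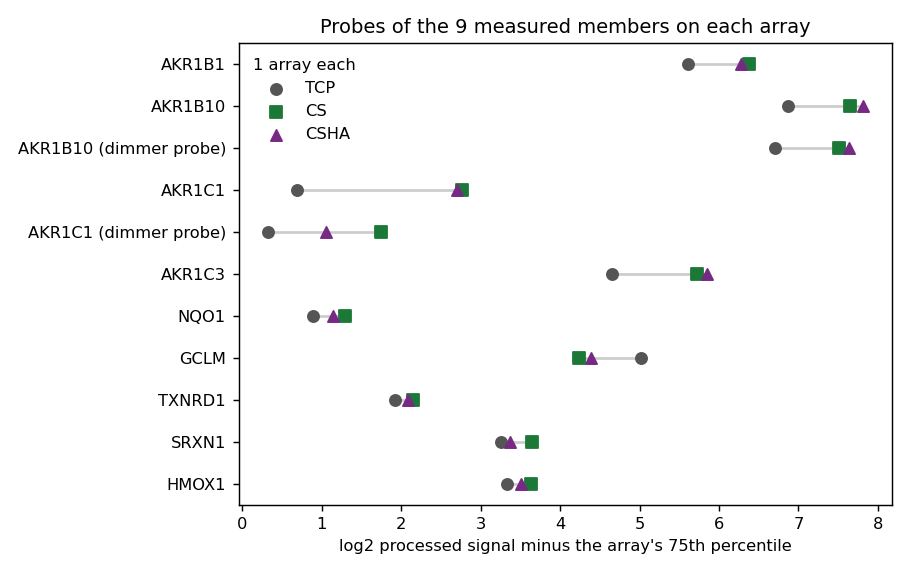
Log2 processed signal minus the 75th percentile of the array (x axis) for the 11 probes of the 9 measured genes (rows), with 1 array per surface. Circles are TCP, squares CS and triangles CSHA, and a grey line spans the 3 values of a probe. The membrane symbols lie to the right of TCP for 10 probes and to the left for GCLM. Levels of different probes are not comparable with each other.

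AKR1C1, an enzyme that inactivates progesterone, was the member that differed most. Its brighter probe (NM_001353) had a processed signal of 571 on TCP against 2883 on CS and 2189 on CSHA. The log2 levels were 0.69, 2.77 and 2.70. TCP was the lowest array, and both membranes lay close together. AKR1C1 was thus higher by 2.08 ± 0.20 (software error, n = 1 array per surface) on CS, or 4.24-fold, and by 2.01 ± 0.20 on CSHA, or 4.03-fold. This put it at rank 26 of 14469 genes compared on CS and at rank 75 of 14631 on CSHA, counted from the highest difference.

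The dimmer AKR1C1 probe, with the same accession, was also lowest on TCP but separated the membranes. Its signals were 445 on TCP against 1417 on CS and 699 on CSHA, for log2 levels of 0.33, 1.75 and 1.05. The differences from TCP were 1.42 ± 0.21 on CS, or 2.67-fold, and 0.72 ± 0.21 on CSHA, or 1.65-fold. The brighter probe exceeded it by 0.66 ± 0.29 on CS and by 1.29 ± 0.29 on CSHA. The direction against TCP was therefore shared by both probes, whereas the size on CSHA, and whether AKR1C1 was at least 2-fold higher there, was set by the choice of probe.

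AKR1C1 and its neighbours on chromosome 10 arose by duplication and have very similar sequences, so a probe of one may also bind the RNA of another. The sequences of the probes were not used here, and the part of such binding in the AKR1C values was not tested. The likeness of the genes is visible in the RefSeq promoter windows, which run from 250 bases before to 50 bases after the annotated start. The bases before the start are not in the RNA made from it. These windows therefore do not measure how alike the RNAs are where a probe binds. Those of AKR1C1 (GRCh38.p14, chr10:4963165-4963464, plus strand) and AKR1C2 (chr10:5003808-5004107, minus strand) are shown because AKR1C2 is the member without a matched probe and the closest to AKR1C1. Capitals mark the bases that are not matched in the other window.
AKR1C1: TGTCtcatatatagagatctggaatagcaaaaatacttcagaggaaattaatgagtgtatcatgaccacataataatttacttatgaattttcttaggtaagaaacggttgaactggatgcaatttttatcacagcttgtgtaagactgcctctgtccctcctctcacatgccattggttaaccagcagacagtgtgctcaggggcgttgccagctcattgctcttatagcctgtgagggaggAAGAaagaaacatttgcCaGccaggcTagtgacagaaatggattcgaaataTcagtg
AKR1C2: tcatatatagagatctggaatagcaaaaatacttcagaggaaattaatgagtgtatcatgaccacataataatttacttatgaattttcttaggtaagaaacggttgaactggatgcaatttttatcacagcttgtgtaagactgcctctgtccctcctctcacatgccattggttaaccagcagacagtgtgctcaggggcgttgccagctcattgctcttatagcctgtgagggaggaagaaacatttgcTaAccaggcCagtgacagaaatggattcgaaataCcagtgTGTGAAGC
In an alignment, 288 bases were identical, or 96% of 300. The same comparison gave 75.67% for AKR1C1 and the first of the AKR1C3 windows and 47.33% for AKR1C1 and the first of the AKR1B1 windows. Of the 10 genes, 8 had at least 1 window, for 11 windows in all. None is shown for AKR1B10 and HMOX1.

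AKR1C3, a reductase of prostaglandins and of androgen precursors, was higher in the same direction as AKR1C1 and by less. Its probe (NM_003739) gave 8948 on TCP against 22428 on CS and 19477 on CSHA, for log2 levels of 4.66, 5.73 and 5.85. Both membranes lay above TCP, and CSHA was the highest array. The difference was 1.07 ± 0.20 on CS, or 2.10-fold, and 1.19 ± 0.20 on CSHA, or 2.29-fold. It ranked 172 on CS and 282 on CSHA.

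AKR1B10, a reductase of retinal and of lipid aldehydes, was measured by a pair of probes that gave the same picture. The brighter (NM_020299) had signals of 41541 on TCP against 85129 on CS and 75789.7 on CSHA, for log2 levels of 6.87, 7.65 and 7.81. It exceeded TCP by 0.78 ± 0.20 on CS, or 1.72-fold, and by 0.94 ± 0.20 on CSHA, or 1.92-fold. AKR1B10 was the nearest member below 2-fold on each membrane, and AKR1C3 the nearest above. The dimmer probe had signals of 37118 on TCP against 77255 on CS and 66964 on CSHA. Its differences were 0.80 on CS and 0.92 on CSHA, within 0.02 of those of the brighter probe.

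AKR1B1, the aldose reductase that turns glucose into sorbitol, was the lowest of the 4 measured reductases relative to TCP on CSHA and level with AKR1B10 on CS. Its probe (NM_001628) gave 17309 on TCP against 35307 on CS and 26179 on CSHA, for log2 levels of 5.61, 6.38 and 6.28. Both membranes were again above TCP. The difference was 0.78 ± 0.20 on CS, or 1.71-fold, and 0.67 ± 0.20 on CSHA, or 1.59-fold, at ranks 332 and 1263.

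The reductases outside the set, in a list written from general knowledge of the family, did not share 1 direction. Of 8 genes with a probe, 7 had a value, of which 5 were higher and 2 lower on CS and 4 were higher and 3 lower on CSHA. Of all genes compared, 57.2% were higher on CS and 61.8% on CSHA. The median was 0.16 on CS and 0.06 on CSHA, against 0.05 and 0.13 over all genes. That on CSHA was -0.02 after quantile normalization and -0.14 with the second brightest probe. AKR1B15, the closest relative of AKR1B10, had signals of 18579 on TCP against 40345 on CS and 33297 on CSHA and was higher by 0.87 and 0.91. Whether the AKR1B15 probe also binds the RNA of AKR1B10 was not tested. AKR1C4, the liver form of the AKR1C group, had signals of 193 on TCP against 446 on CS and 246 on CSHA and was higher by 0.95 and 0.42. Its other probe was well above background on CS alone.

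Reductases of other branches of the family went either way. AKR1A1, the widely expressed aldehyde reductase, differed by -0.10 on CS and -0.61 on CSHA, and AKR1E2 by -0.38 and -0.60. AKR7A3, an aflatoxin aldehyde reductase, differed by 0.16 on CS and -0.76 on CSHA, whereas AKR7A2 differed by 0.15 and 0.33. AKR7L differed by 0.30 on CS and 0.06 on CSHA with its brighter probe and by 0.28 and 0.56 with the other. AKR7A2P1, a pseudogene found later by its family name, differed by 0.00 and -0.76. AKR1D1, a bile acid and steroid reductase, was not well above background on any array.

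AKR1C8, which lies within the AKR1C group on chromosome 10, was on neither list and was picked out after its values had been seen. Its brighter probe (NR_027916) had signals of 179 on TCP against 758 on CS and 389 on CSHA, and was higher by 1.83 ± 0.21 and 1.19 ± 0.21. Its other probe was not well above background on any array, and neither was the probe of AKR1C6P. With AKR1C8 included, all 7 AKR1B and AKR1C genes with a value were higher on CS and on CSHA, where 57.2% and 61.8% of all genes were. At least 2-fold higher were 3 on each membrane, beside 1.38% and 3.05% of all genes. Members of the set, chosen from these same contrasts, are among these genes, as is AKR1C8, so nothing can be read from these shares. These genes also share much of their sequence, so they are not independent measurements.

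**Figure D2:**
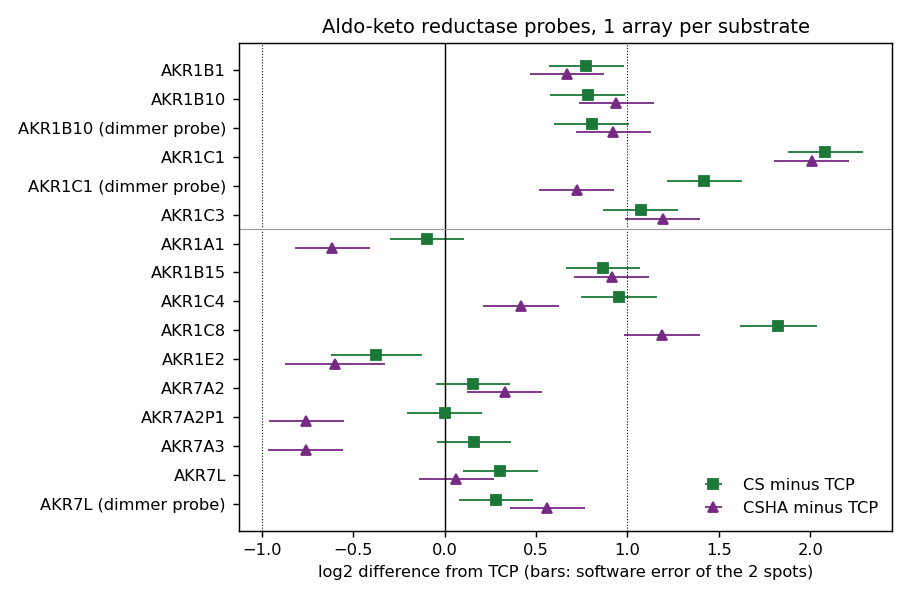
Log2 difference from TCP (x axis) of every aldo-keto reductase probe well above background on all 3 arrays, for CS (squares) and CSHA (triangles), with bars of the scanner software's error of the difference. Dotted lines mark 2-fold, members of the set stand above the grey line, and the AKR1B and AKR1C probes lie to the right of 0 for both membranes while AKR1A1 and AKR1E2 lie to the left.

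Of the 5 NRF2 targets that are not reductases of this family, 4 were higher and GCLM was lower on both membranes, and the 4 differed from TCP by less than any reductase of the set. NQO1, a quinone reductase often used to report NRF2 activity, had signals of 658 on TCP against 1038 on CS and 744 on CSHA (NM_000903). The log2 levels were 0.89, 1.30 and 1.14. NQO1 exceeded TCP by 0.40 ± 0.20 on CS, or 1.32-fold, and by 0.25 ± 0.20 on CSHA, or 1.19-fold. TCP was the lowest array, and the difference on CSHA was little more than its software error.

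SRXN1, which repairs oxidized peroxiredoxins, had signals of 3376 on TCP against 5274 on CS and 3485 on CSHA (NM_080725). It differed by 0.39 ± 0.20 on CS and by 0.12 ± 0.20 on CSHA. The latter was within the software error and just under the median of all genes compared, which was 0.13.

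HMOX1, the heme oxygenase that opens the heme ring, was printed in 10 spots on each array, so its level rests on more spots than that of any other member. Of these, 9 were used on TCP against 8 on CS and 10 on CSHA, with an SD among spots of 0.03, 0.03 and 0.05. The mean signals were 3560 on TCP against 5226 on CS and 3848 on CSHA (NM_002133). The differences were 0.30 ± 0.20 on CS and 0.18 ± 0.20 on CSHA, both small beside the reductases of the set.

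TXNRD1, the cytosolic thioredoxin reductase, had signals of 1345 on TCP against 1871 on CS and 1430 on CSHA (NM_001261445). It differed by 0.22 ± 0.20 on CS and 0.16 ± 0.20 on CSHA, the smallest difference of any member on CS.

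GCLM, the regulatory subunit of the enzyme that starts glutathione synthesis, was the single member below TCP. Its probe (NM_002061) gave 11469 on TCP against 7980 on CS and 7079 on CSHA, for log2 levels of 5.01, 4.24 and 4.39. TCP was the highest array. GCLM was lower by a log2 difference of -0.78 ± 0.20 on CS, or 0.584 of the TCP level, and of -0.62 ± 0.20 on CSHA, or 0.648 of it. It ranked 14019 of 14469 genes on CS and 13154 of 14631 on CSHA. GCLC, the catalytic subunit of the same enzyme, had signals of 4078 on TCP against 6724 on CS and 4989 on CSHA. GCLC exceeded TCP by 0.47 on CS and by 0.36 on CSHA, so the subunits of this enzyme lay on opposite sides of TCP on both membranes.

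Counted over the set, 8 of the 9 measured genes were higher and 1 lower on CS, where 57.2% of all genes compared were higher and 42.8% lower. On CSHA, 8 were higher and 1 lower, where 61.8% of all genes were higher and 38.2% lower. At least 2-fold higher were 2 of 9 on CS, beside 1.38% of all genes, and 2 of 9 on CSHA, beside 3.05%. At least 2-fold lower were 0 of 9 on each, beside 1.91% on CS and 3.98% on CSHA. The median of the set was 0.40 on CS and 0.25 on CSHA, against 0.05 and 0.13 over all genes. As the set was chosen from these same contrasts, nothing can be read from the shares. All 9 differences exceeded the software error on CS, and 6 did on CSHA, where those of TXNRD1, SRXN1 and HMOX1 did not.

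**Figure D3:**
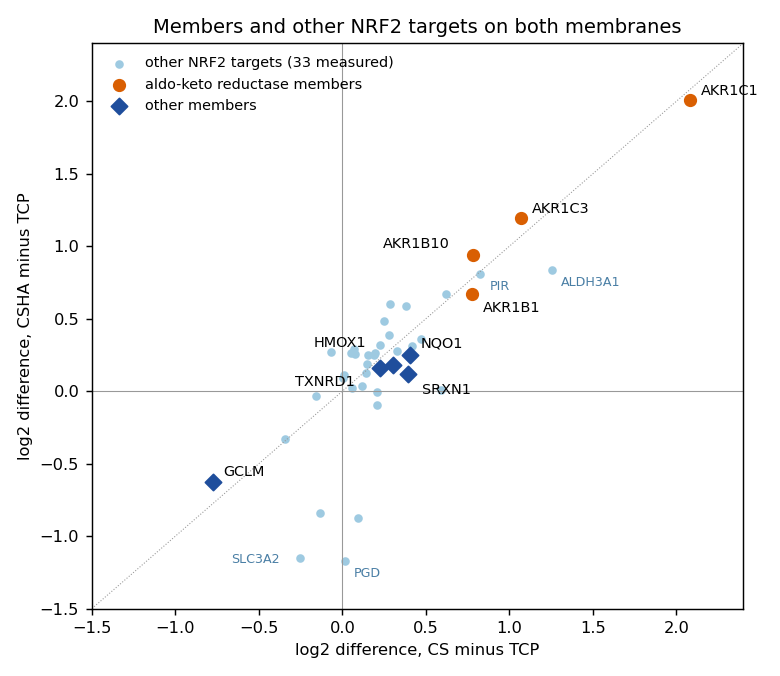
Log2 difference from TCP on CS (x axis) and CSHA (y axis) of the 9 measured genes of the set and of 33 further NRF2 targets, with 1 array per surface. Circles in orange are the aldo-keto reductases, diamonds the other members, small circles the further targets, and the dotted line marks equal differences. Both axes share the TCP array. The reductases stand at the upper right, GCLM at the lower left, and PGD and SLC3A2 at 0.02 and -0.25 on CS and under -1 on CSHA.

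Between the membranes the set differed little. The median difference of CSHA minus CS was -0.07, with 3 genes higher and 6 lower, where 58.3% of all genes were higher and 41.7% lower. Of the 9, 0 were at least 2-fold higher or lower, beside 2.3% and 2.17% of all genes. Scaling to spike-in controls, which adds 0.37 to every difference of this comparison, put all 9 above 0 and the median of all genes at 0.44 in place of 0.07. Relative to that median, AKR1B10, AKR1C3 and GCLM were higher by 0.05 to 0.08 and the 6 other genes differed by -0.35 to -0.14. Of the 9 differences, that of SRXN1, at -0.27 ± 0.20, alone exceeded the software error. Other probes of the AKR1C group had wider gaps. The dimmer AKR1C1 probe differed by -0.70 ± 0.20, AKR1C8 by -0.64 and AKR1C4 by -0.54, and the brighter AKR1C1 probe and AKR1C3 by -0.07 and 0.12.

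The further NRF2 targets were taken from a list of 38 genes, of which 35 had a probe and 33 a value. On CS, 28 were higher and 5 lower, with a median of 0.15, where 57.2% of all genes were higher and their median was 0.05. On CSHA, 25 were higher and 8 lower, with a median of 0.25, where 61.8% of all genes were higher and their median was 0.13. At least 2-fold higher was 1 gene on CS and 0 on CSHA, beside 1.38% and 3.05% of all genes, and at least 2-fold lower were 0 on CS and 2 on CSHA, beside 1.91% and 3.98%. Levels as high relative to TCP as the lowest reductase of the set were reached by 2 of the 33 on CS and by 3 on CSHA. Over all genes compared, 2.29% reached that level on CS and 8.63% on CSHA.

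ALDH3A1, an aldehyde dehydrogenase, was the target at least 2-fold higher on CS. Its brighter probe had signals of 3902 on TCP against 11101 on CS and 6639 on CSHA and exceeded TCP by 1.26 on CS and by 0.84 on CSHA. Its other probe was higher by 1.07 and 0.17, so the value on CSHA again depended on the probe. PIR, a redox-sensitive nuclear protein, exceeded TCP by 0.83 on CS and 0.81 on CSHA. ABCC2, an exporter of conjugates, did so by 0.62 and 0.67.

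Genes that supply NADPH and cystine differed among themselves, mainly on CSHA. PGD, of the pentose phosphate pathway, had signals of 6360 on TCP against 7664 on CS and 2688 on CSHA and differed by 0.02 on CS and -1.17 on CSHA. TKT, also of that pathway, differed by 0.29 and 0.60. SLC3A2, the heavy chain of the cystine transporter, differed by -0.25 on CS and -1.15 on CSHA. SLC7A11, its light chain, differed by 0.19 and 0.26. GPX2, the glutathione peroxidase of the gut, differed by 0.20 and -0.10. ABCC1, a further exporter of conjugates, was the lowest of the list on CS, at -0.34, with -0.33 on CSHA.

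The genes that control NRF2 lay around TCP. Of 12 with a probe, 11 had a value, 5 higher and 6 lower on each membrane. Of all genes compared, 57.2% were higher on CS and 61.8% on CSHA. The list had a median of -0.03 on CS and of -0.11 on CSHA, against 0.05 and 0.13 over all genes. Scaling to spike-in controls turned these medians to 0.04 and 0.32, and those of all genes to 0.11 and 0.57. The matched probe of NFE2L2 (NM_006164) had signals of 5.95 on TCP against 5.13 on CS and 5.38 on CSHA and was not well above background on any array, so no level can be given for the NRF2 transcript. KEAP1, which holds NRF2 for degradation, was level with TCP at 0.02 on CS and 0.01 on CSHA. BACH1, the competitor of NRF2, differed by -0.21 on CS and 0.00 on CSHA. MAFK, a small MAF partner, differed by -0.36 and -0.80, and MAFF by 0.13 and 0.30. SQSTM1, a KEAP1-binding autophagy receptor and the highest of the list on CS, differed by 0.21 and -0.31. DPP3, a peptidase that binds KEAP1, differed by -0.17 on CS and -1.12 on CSHA. It was the 1 gene of the list past 2-fold, beside 3.98% of all genes at least 2-fold lower on CSHA.

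Antioxidant enzymes that are not classed here as NRF2 targets served as a further list of 18 genes, of which 17 had a value. On CS 11 were higher and 6 lower, with a median of 0.09, where 57.2% of all genes were higher and their median was 0.05. On CSHA 9 were higher and 8 lower, with a median of 0.02, where 61.8% of all genes were higher and their median was 0.13. The highest was GLRX, a glutaredoxin, with 0.48 on CS and 0.35 on CSHA. The lowest was PRDX2, a peroxiredoxin, with -0.19 on CS and -1.20 on CSHA. It was the 1 gene past 2-fold, beside 3.98% of all genes at least 2-fold lower on CSHA. TXNRD2, the mitochondrial thioredoxin reductase, was lowest on CS, at -0.52.

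**Figure D4:**
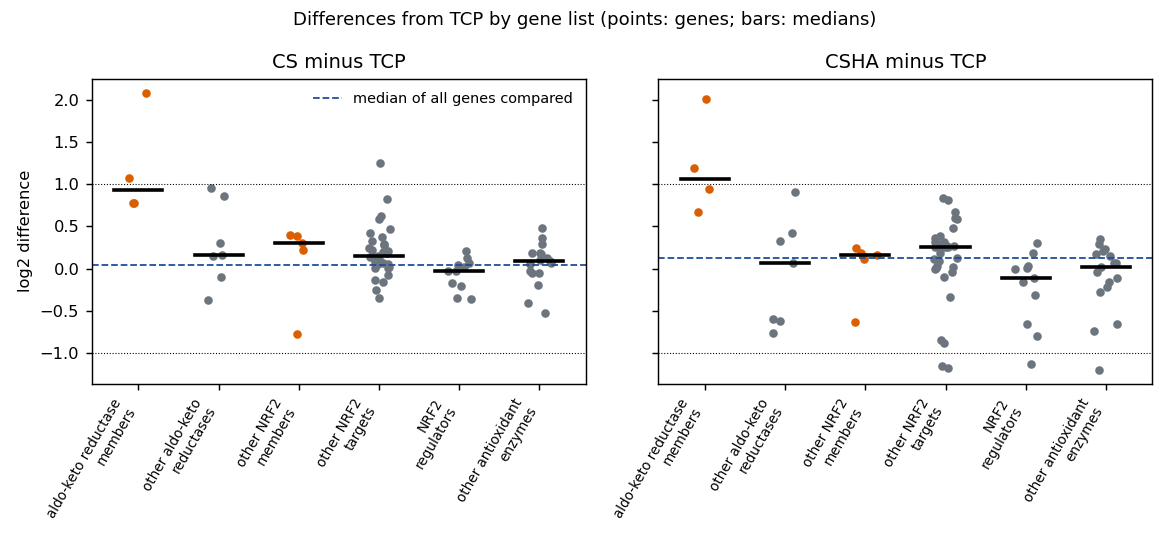
Log2 difference from TCP (y axis) of each gene with a value (points) by list, on CS (left) and CSHA (right), with bars at the list medians, a dashed line at the median of all genes compared and dotted lines at 2-fold. The aldo-keto reductases of the set have medians of 0.93 on CS and 1.07 on CSHA, and the other members 0.30 and 0.16. All points move up by the same shift on CSHA under scaling to spike-in controls, which turns the median of the NRF2 regulators from -0.11 to 0.32 and that of all genes from 0.13 to 0.57.

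The letters of the antioxidant response element were searched on both strands of the promoter windows, as TGACNNNGC and as a longer form that has A as a further base at its end and so contains the former. The shorter form was found in 3 of the 11 windows of the set, or 27.3%, against 13.3% of 35116 windows of all genes, and the longer form in 2 of 11, against 3.18%. All of these belonged to GCLM and TXNRD1. In the 6 windows of AKR1B1, AKR1C1, AKR1C2 and AKR1C3 neither form was found, which says only that the letters are not in these 300 bases. Among the further NRF2 targets, 11 of 36 windows held the shorter form, or 30.6%, and 5 of 36 the longer, or 13.9%. The GCLM window (GRCh38.p14, chr1:93909381-93909680, minus strand) and the second TXNRD1 window (chr12:104286782-104287081, plus strand) are shown because they hold the longer form, here in capitals. It lies on the opposite strand in each and so reads in reverse complement.
GCLM: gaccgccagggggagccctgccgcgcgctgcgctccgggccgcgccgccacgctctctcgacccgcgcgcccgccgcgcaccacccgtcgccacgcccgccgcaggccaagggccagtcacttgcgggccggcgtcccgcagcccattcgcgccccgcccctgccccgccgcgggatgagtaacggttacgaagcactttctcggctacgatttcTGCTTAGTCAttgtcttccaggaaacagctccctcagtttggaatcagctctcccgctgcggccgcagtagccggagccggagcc
TXNRD1: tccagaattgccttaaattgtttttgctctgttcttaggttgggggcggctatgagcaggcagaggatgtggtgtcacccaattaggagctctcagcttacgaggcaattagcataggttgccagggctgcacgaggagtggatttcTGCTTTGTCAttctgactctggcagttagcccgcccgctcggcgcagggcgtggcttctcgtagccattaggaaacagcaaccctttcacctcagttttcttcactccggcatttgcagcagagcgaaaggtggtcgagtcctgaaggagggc
The match lay at -35 to -26 in GCLM and at -103 to -94 in TXNRD1, with 0 at the first base after the 250 upstream bases. A match of letters is not a measured binding site.

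How far the values of the set move with the processing differed between CS and CSHA. Relative to TCP, 8 genes were higher and GCLM lower on each membrane under every scaling, background correction and filter computed, and the second probes of AKR1B10 and AKR1C1 were higher as well. On CS the range over the alternatives was 1.42 to 2.15 for AKR1C1, 1.02 to 1.14 for AKR1C3 and -0.83 to -0.69 for GCLM. On CSHA it was 0.72 to 2.45 for AKR1C1, 1.12 to 1.63 for AKR1C3 and -0.68 to -0.19 for GCLM. The lowest AKR1C1 values came from its dimmer probe. The upper ends on CSHA came from scaling to spike-in controls, which moved the median of all genes from 0.13 to 0.57. Relative to that median AKR1C1 was higher by 1.88, AKR1C3 by 1.06, AKR1B10 by 0.81 and AKR1B1 by 0.54, GCLM differed by -0.76, and NQO1, HMOX1, TXNRD1 and SRXN1 lay between -0.01 and 0.12.

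**Figure D5:**
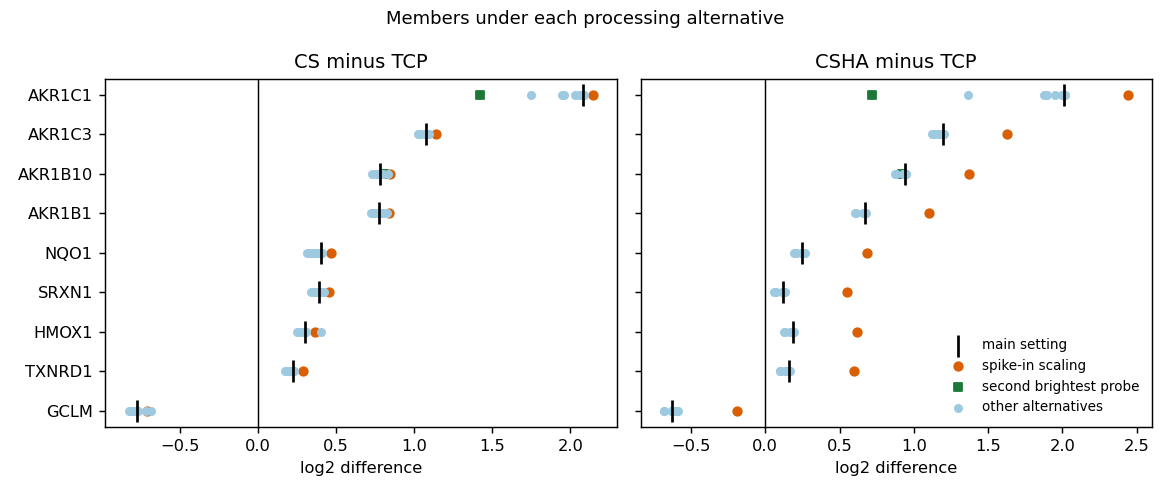
Log2 difference from TCP (x axis) of each measured gene of the set (rows) on CS (left) and CSHA (right) under the main processing (bar) and each alternative (symbols), with scaling to spike-in controls and the second brightest probe marked. No symbol crosses 0, and on CSHA the spike-in symbols stand to the right for all 9 genes.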

How the data were processed

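Gene expression was measured in HT29 cells on 3 surfaces with 3 single-colour Agilent arrays, 1 per surface. The authors deposited the spot intensity of each array as given by Feature Extraction 10.7.3.1 (per the file headers, while the methods name another version) and a table of log2 values. That deposited table was found to hold the log2 median signal, shifted per array and centred per spot, without background subtraction, and served as an alternative. Labels and methods name different RNA and labelling kits. Of the columns of the deposited table, 0 were left unused.

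Processed signals were floored at 1, which changed 0 spots. Their log2 value was averaged over the spots of a probe without outlier-flagged spots, and shifted by the 75th percentile over non-control probes, following the methods. Accessions were matched to symbols through a RefSeq table (GRCh38.p14), used for names and gene order, which matched 30004 of 50599 probes and left 20595. This gave 21614 genes, 6222 of them with several probes, of which the brightest was taken. Genes well above background on either array of a comparison entered it, as a bound where the other array was not. A rule of size, 2-fold, replaced tests. The scanner software's error was about 10% of a signal, and repeat spots were taken from 902 probes printed 10 times. The number of arrays limits the precision. The calculation was tested on simulated data.

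The members and lists were chosen with earlier results of these data known. Named are all members with every matched probe, and of each list the genes past 2-fold and those farthest from TCP. NFE2L2, KEAP1, BACH1, GCLC, SLC7A11, GPX2 and AKR1C4 are also named, as are the 5 genes nearest to AKR1C1 and to the members' median. Not every gene of the rule is reported here. In all, 13 alternatives were computed: normexp with an offset of 50 on the median signal, quantile normalization, shifts by other percentiles or by 5 spike-in probes, 2 other filters, 2 other probe rules, the deposited values, and thresholds of 1.5-fold and 3-fold. The shift by the 75th percentile over spots was chosen after seeing the data. Calculations ran in Python 3.11.15 with pandas 2.3.3 and numpy 2.4.6, and normexp in limma 3.58.1 under R 4.3.3.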

Additional observations from a re-analysis of the deposited data

How the results depend on the processing

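With 1 array per surface, every difference between surfaces lacks a replicate check, and leaving out an array leaves nothing to compare. No paired analysis was possible because each group had 1 array. Of 1053 values recomputed under 13 alternatives, 926 stayed within the spread among repeat spots or within 1.5 times a count. A further 116 were classed as moved and 11 as reversed. All 11 reversed values arose from scaling to spike-in controls. The difference of CSHA minus CS became 0.26 for AKR1B1, 0.30 for AKR1C1, 0.22 for NQO1, 0.098 for SRXN1 and 0.25 for HMOX1. Its medians became 0.30 for the set, 0.25 for its NRF2 targets, 0.29 for the NRF2 regulators, 0.13 for the other reductases and 0.24 for the other antioxidant enzymes. The median of the regulators on CSHA against TCP became 0.32. Some changes of sign were not in this class, such as that of the other reductases' median on CSHA given above. Under spike-in scaling TXNRD1 also went from -0.06 to 0.31 for CSHA minus CS, and the regulators' median on CS from -0.03 to 0.04. That scaling also gave a median of the set of 0.47 on CS and 0.69 on CSHA, and 4 genes at least 2-fold higher on CSHA. By its construction, it moved all genes together: on CSHA, 1820 genes were then at least 2-fold higher and 172 lower, against 446 and 582. The second brightest probe left 1 gene at least 2-fold higher on CSHA. A threshold of 1.5-fold gave 4 genes of the set higher and 1 lower on each membrane, beside 603 and 727 of all 14469 genes on CS and 1703 and 1633 of 14631 on CSHA, and 3-fold gave 1 higher on each, beside 76 and 153. Over all genes, the counts past 2-fold (higher on CS, lower on CS, higher on CSHA, lower on CSHA) were 57, 103, 157 and 291 with normexp, 68, 139, 186 and 329 with the deposited values, 639, 1152, 1134 and 1188 without a filter on dim probes, and 85, 81, 264 and 445 where all arrays had to be well above background. Probes of the set lay far above background, so depth of signal limits AKR1C8 and AKR1C4 more than the set.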

Other observations

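Among 13490 genes well above background on all 3 arrays, those whose 2 differences from TCP lay nearest to AKR1C1 (2.08 on CS and 2.01 on CSHA) were TPPP3, with 1.98 and 1.85, NR0B2, with 1.74 and 2.06, LGALS2, with 1.74 and 1.78, TPPP, with 1.64 and 2.04, and CEACAM5, with 1.57 and 2.16. The distance was Euclidean over the 2 differences and ran from 0.187 to 0.534. Both differences share the TCP array. AKR1C1 was represented here by its brighter probe. Its dimmer probe differed by 1.42 on CS and 0.72 on CSHA, so these neighbours depend on the choice of probe. Nearest to the median of the set, at 0.40 and 0.25, were NQO1 itself, PTPN2, TMX1, KYAT3 and STK17B, at distances of up to 0.0124.

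The genes beside the reductases on the chromosomes were mixed in direction. Next to the AKR1C group on chromosome 10, PITRM1 differed by -0.08 on CS and -0.58 on CSHA, KLF6 by 0.45 and 0.94, and UCN3 by -0.92 and -0.91. NET1 differed by 0.08 and 0.37, CALML5 by 0.04 and 0.35, and TUBAL3, which was not well above background on TCP, by at least 0.65 and at least 0.96. Beside the AKR1B group on chromosome 7, CHCHD3 differed by 0.09 on CS and -0.28 on CSHA, EXOC4 by 0.26 and 0.23, SLC35B4 by -0.14 and 0.21, and BPGM by 0.10 and 0.04. CALD1 differed by -0.90 and -0.61, AGBL3 by 0.01 and 0.21, and CYREN by -0.28 and -0.82. No value was available for LRGUK, which was not well above background on any array.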
